A study of Arabidopsis thaliana with 24 samples.

Results

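AT5G15950 encodes an S-adenosylmethionine decarboxylase of Arabidopsis thaliana. It is described here through every probe set that the probe table pairs with the locus, which is 1 of 22746 probe sets on the array besides the Affymetrix controls. The gene was chosen by its red-light response in wild type, with its response in phyA and the difference between phyAphyB and wild type also known. Those values are therefore given as descriptions without a test. By that criterion it had the 7th largest rise, 2.25 log2 units, among wild type rises of named, bright genes whose red and dark arrays did not overlap. A list of 12 such rises ended with AT1G73480 at 1.92, and AT5G35970 at 1.90 came next.

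S-adenosylmethionine decarboxylase removes the carboxyl group of S-adenosylmethionine, the cell's main methyl donor and also the precursor of ethylene. The product gives up its aminopropyl group to turn putrescine into spermidine, and spermidine into spermine or thermospermine, so the enzyme is a control point of polyamine synthesis. Plant mRNAs for the enzyme carry short upstream reading frames through which polyamines restrain translation, and the protein is made as a proenzyme that cleaves itself. A transcript level is therefore only one of the layers that set enzyme activity. Phytochromes are red and far-red photoreceptors: phytochrome A is abundant in dark-grown seedlings and degraded in light, and phytochrome B is the main light-stable form.

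Whole seedlings (root, hypocotyl and cotyledon) aged 4 days were hybridised to 24 arrays. The 8 groups of 3 biological replicates were phyA, phyB, phyAphyB and wild type seedlings, each after 1 h of continuous red light (wavelength 680 nm, fluence rate 8 µmol m-2 s-1) or kept in darkness. The sources used here name no mutant alleles or parental strains and do not say whether mutants came from more than 1 line, and the mutants carry their mutation in every cell type. A value is a MAS5 signal, the Affymetrix summary of a probe set's brightness on a linear scale, and a difference is on the log2 scale with its SE from limma unless a signal is named.

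Array medians lay between 169.8 and 195 signal units and the mean correlation of an array with its group between 0.954 and 0.981. No probe set was paired with PHYA or PHYB, so the mutated genes were not available as a check of the labels. The 25S ribosomal RNA control was far brighter in replicates 2 and 3 of dark phyA (10508 and 13574 signal units) than elsewhere (46.8 to 450), and the phyA values of AT5G15950 that use this pair of arrays are also given without it, from the 1 dark phyA array left. Of the tissue markers, those of cotyledon and plastid were bright (4 of the 6 listed genes had a named probe set, summed signal 18745 to 31043 over all arrays). Root hair expansin genes were near background: EXPA7 did not pass the filter on dim probe sets, and EXPA18 averaged 74.5 to 143 per group, close to the arrays' 40th percentile of 97.4 to 127.3. In whole seedlings, fewer cells of a type and less RNA per cell cannot be told apart.

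In darkness the levels of AT5G15950 in the 4 genotypes overlapped. Its signal was 447.5, 542 and 556.4 in dark phyA, 465.9, 692.7 and 531.2 in dark phyB and 599.6, 519.1 and 591.6 in dark phyAphyB, against 545.6, 496 and 572.3 in dark wild type. Every one of these values stood above the 40th percentile of its array, so the gene was measurable without light. Relative to dark wild type, the dark mutants differed by -0.066 in phyA, 0.049 in phyB and 0.083 in phyAphyB on the log2 scale (SE 0.14 each). The 95% intervals were -0.36 to 0.23, -0.25 to 0.35 and -0.21 to 0.38. They do not show equality: in phyAphyB, for example, the interval reaches a 1.30-fold higher level. Without dark phyA replicates 2 and 3 the phyA value was -0.26 and rested on 1 dark mutant array.

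After 1 h of red light the gene was high in wild type and in phyB, intermediate in phyA and only slightly above darkness in phyAphyB. The red phyA arrays read 1770.2, 1606.3 and 1591.3, a tight group that lay above all 12 dark arrays and below every red phyB and red wild type array. Red phyB arrays read 2527.1, 2348.2 and 2666.1, all within the range of red wild type at 2928.5, 2809.6 and 2016.3. Red phyAphyB arrays read 751.7, 680.1 and 850.9. These lay above the 3 dark phyAphyB arrays, but the lowest was below the highest dark array of phyB.

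**Figure D1:**
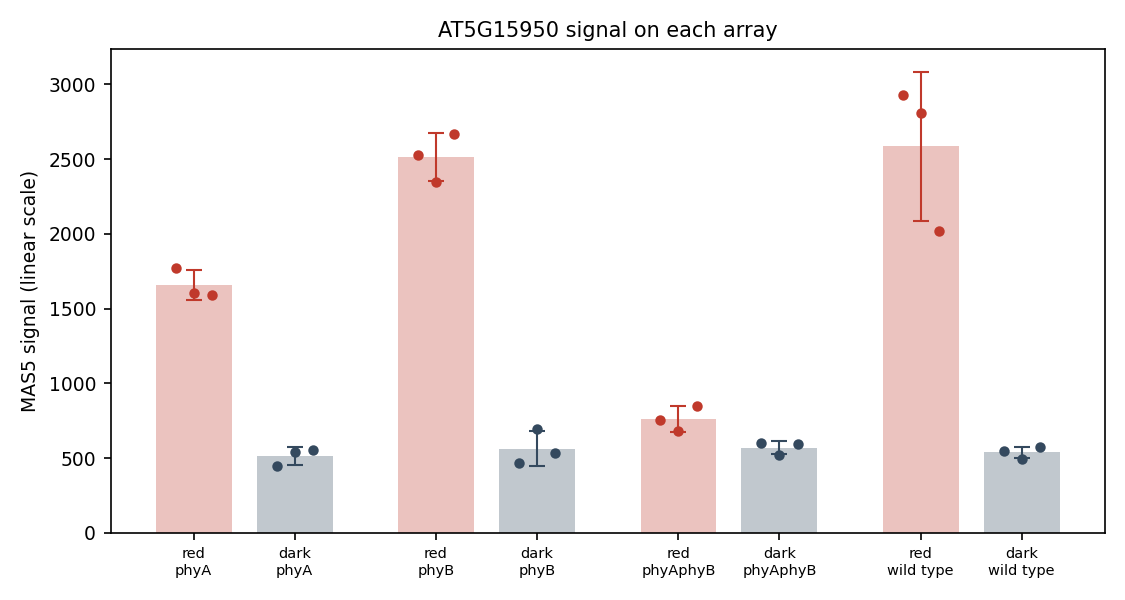
MAS5 signal of AT5G15950 (linear axis from 0) in red light and darkness for each genotype. Points are single arrays, bars are group means and error bars are the SD (n = 3). Red phyB (mean 2514) and red wild type (2585) overlap, red phyA (1656) lies between them and red phyAphyB (761), and the 4 dark groups (515 to 570) overlap.

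Ordered by mean log2 signal, the groups were red wild type (11.32), red phyB (11.29), red phyA (10.69), red phyAphyB (9.57), dark phyAphyB (9.15), dark phyB (9.12), dark wild type (9.07) and dark phyA (9.0). Neighbours overlapped between red wild type and red phyB and throughout the dark groups. The other 3 steps, of 0.60, 1.13 and 0.41, separated groups whose arrays did not overlap. Red wild type had the widest spread of the red groups (SD 496, against 159 in red phyB, 99.2 in red phyA and 85.8 in red phyAphyB), through replicate 3. Around the group means the log2 signal varied with an SD of 0.18, against a median of 0.21 over all 15085 tested probe sets. Among the 500 probe sets nearest in mean log2 signal the median was 0.17, so the spread was slightly above that of probe sets of like brightness.

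The response in phyB was not among the values known when the gene was chosen, and it was tested. A rise there was nevertheless likely once a gene with a large wild type rise had been chosen. For the 228 other probe sets called and at least 2-fold higher in red wild type, the median phyB response was 88.3% of wild type. No tested probe set was called for a response difference between phyB and wild type. The p is therefore no support separate from the wild type response. AT5G15950 averaged 2514 ± 159 in red phyB and 563 ± 117 in dark phyB (SD, n = 3 each). It rose 4.52-fold (log2 2.18 ± 0.14, 95% interval 1.88 to 2.47, limma adjusted p = 1.2e-10), with all 3 red arrays above all 3 dark arrays. The lowest red array stood at 3.39 times the highest dark array. Over all alternative analyses the change stayed between 2.05 and 2.34, and the largest adjusted p was 1.19e-05. In phyB, 5.75% of all tested probe sets were called in either direction at an adjusted p under 0.05, and 42 had a larger rise than AT5G15950. The summed signal of the 4 cotyledon and plastid markers overlapped between red phyB (18745 to 25410) and dark phyB (21907 to 25655). The members did not move together: PORB, for a chlorophyll synthesis enzyme, fell by 0.57 (limma adjusted p = 0.0151). RCA (0.34), LHCB4.2 (0.20) and LHCB4.1 (-0.12) did not pass. The part of these markers in the phyB response was not tested.

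The remaining red responses are described without a test. In phyA the gene averaged 1656 ± 99.2 in red light and 515 ± 59.2 in darkness, 3.22-fold higher (log2 1.69 ± 0.14, interval 1.39 to 1.99). In phyAphyB it averaged 761 ± 85.8 in red light and 570 ± 44.3 in darkness, 1.33-fold higher (log2 0.41 ± 0.14, interval 0.12 to 0.71). In wild type it averaged 2585 ± 496 in red light and 538 ± 38.7 in darkness, 4.75-fold higher (log2 2.25 ± 0.14, interval 1.95 to 2.54). All 3 red arrays lay above all 3 dark arrays in each genotype, by the smallest margin in phyAphyB, where the lowest red array stood at 1.13 times the highest dark array. The probe sets called in either direction made up 4.34% of those tested in phyA, 0.305% in phyAphyB and 6.45% in wild type. In wild type the summed signal of the cotyledon and plastid markers was 23431 to 25175 in red light and 27132 to 31043 in darkness, while in phyA and phyAphyB it overlapped. The wild type markers did not move together: PORB, for the light-dependent chlorophyll synthesis enzyme, fell by 0.72 (limma adjusted p = 0.00177), while LHCB4.1 (-0.34), LHCB4.2 (0.0042) and RCA (0.20) did not pass. Their part in these results was not tested. A larger rise than that of AT5G15950 was seen for 28 probe sets in phyA, 328 in phyAphyB and 43 in wild type.

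**Figure D2:**
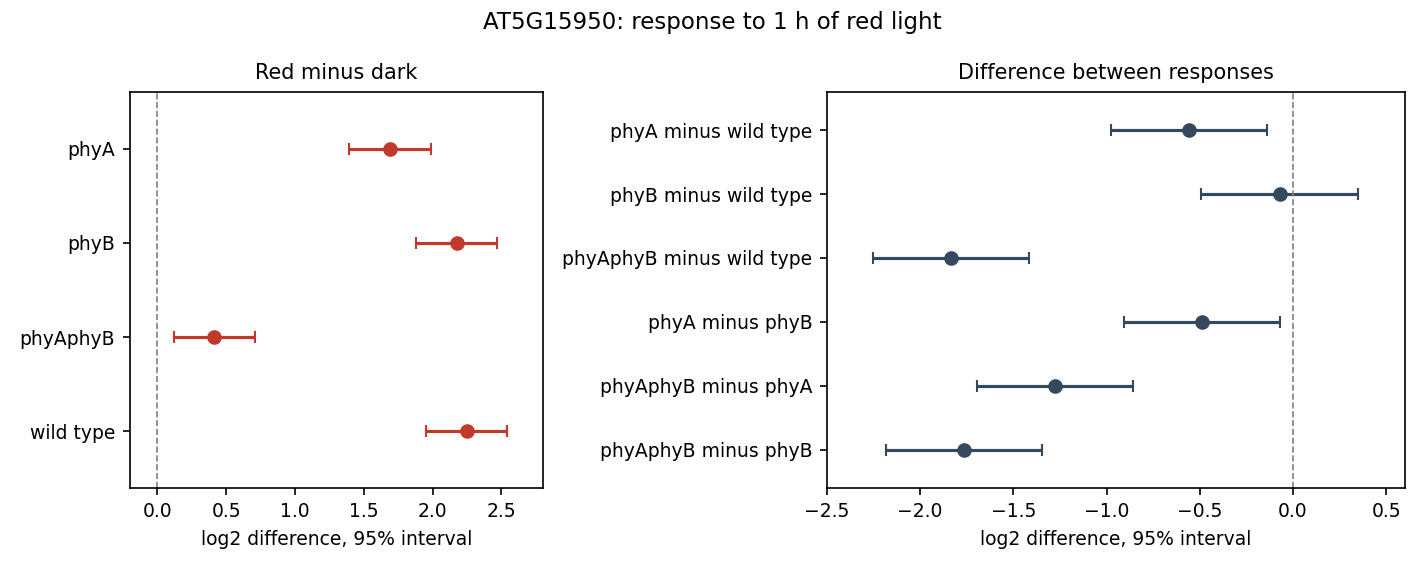
AT5G15950 on the log2 scale. The left panel shows red minus dark in each genotype and the right panel the difference between the responses of a pair of genotypes, with points for estimates and bars for 95% intervals from limma over 24 arrays. The response is largest in wild type (2.25) and phyB (2.18), smaller in phyA (1.69) and smallest in phyAphyB (0.41).

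The response was lower in phyAphyB by more than the differences of phyA and phyB from wild type add up to. Relative to wild type, the log2 response differed by -0.56 ± 0.20 in phyA (interval -0.98 to -0.14), by -0.072 ± 0.20 in phyB (interval -0.49 to 0.35) and by -1.83 ± 0.20 in phyAphyB (interval -2.25 to -1.42). The shortfalls of phyA and phyB sum to 0.63, beside 1.83 in phyAphyB, and the non-additivity was -1.20 ± 0.29 (interval -1.80 to -0.61). Without dark phyA replicates 2 and 3 it was -1.40 ± 0.32 (interval -2.06 to -0.74). The phyB interval includes a response 0.49 lower than in wild type, so equal responses are not shown. On the phyA mutant background, the response with phyB also mutated differed by -1.28 ± 0.20 (phyAphyB minus phyA). On the phyB mutant background, the response with phyA also mutated differed by -1.76 ± 0.20 (phyAphyB minus phyB). These comparisons share arrays, and their sizes are not independent of each other. The wild type and phyA responses and the phyAphyB difference from wild type were known when the gene was chosen. The intervals, that of the non-additivity included, take no account of this choice and are descriptions, not tests.

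The phyA and phyB mutants differed from each other by -0.49 ± 0.20 in their responses (phyA minus phyB, interval -0.91 to -0.068). Without dark phyA replicates 2 and 3, the phyA response was 1.89, its difference from wild type -0.36 and its difference from phyB -0.29. These smaller values rest on 1 dark phyA array and are given without an interval. They do not show that the phyA response differed from that of wild type or phyB. The comparison of red arrays alone uses no dark array: red phyA was below red wild type by -0.62 ± 0.14 (interval -0.92 to -0.33), red phyB differed by -0.023 (interval -0.32 to 0.27) and red phyAphyB by -1.75 (interval -2.05 to -1.45).

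The scale used changes how much of the response phyA appears to keep. In log2 units phyA kept 75.1% of the wild type response, phyB 96.8% and phyAphyB 18.4%. In signal units the red minus dark difference was 1141 ± 66.7 in phyA, 1951 ± 114 in phyB and 191 ± 55.7 in phyAphyB, against 2047 ± 287 in wild type (SE, n = 3 per group). That is 55.7%, 95.3% and 9.32% of wild type. Without dark phyA replicates 2 and 3, phyA kept 83.9% of the wild type response in log2 units and 59.0% in signal units. The order of the genotypes was the same on both scales.

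Across the array, AT5G15950 kept more of its response in phyA than most strongly induced probe sets did. Besides it, 228 probe sets were called and at least 2-fold higher in red wild type. Their median log2 response in phyA was 48.6% of wild type (quartiles 30.2 and 68.5%), and 44 of 228 kept more than the 75.1% of AT5G15950. In phyB the median of the others was 88.3%, with 69 above the 96.8% of AT5G15950. In phyAphyB it was 9.74%, with 68 above 18.4%. The non-additivity of AT5G15950 (-1.20) was more negative than that of all but 30 of the 228, whose median was -0.42. Without dark phyA replicates 2 and 3, 33 of 228 kept a larger share in phyA than AT5G15950 (median 47.3%), and 18 had a more negative non-additivity (median -0.37). These shares are descriptive. The probe sets were picked by a large wild type response, which makes that response look larger and the share smaller, and all shares use the same wild type arrays. AT5G15950 itself was chosen with its wild type and phyA responses and its phyAphyB difference from wild type known. Its place among the 228 is therefore a description and no test.

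**Figure D3:**
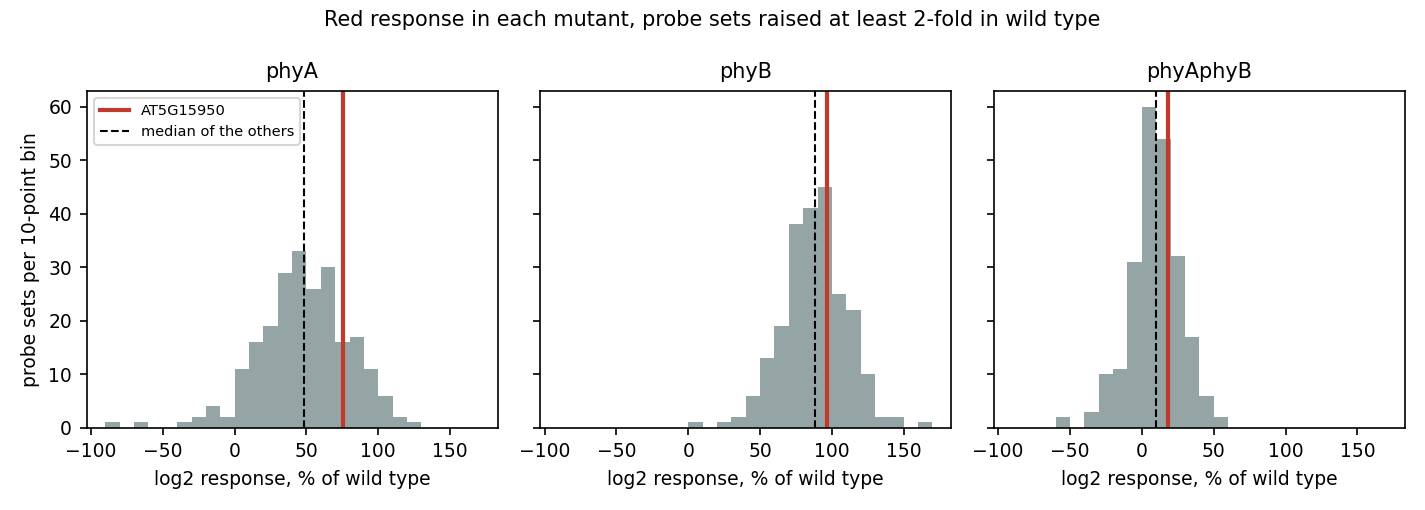
Log2 red response in phyA, phyB and phyAphyB as a percentage of the wild type response, for 228 other probe sets called and at least 2-fold higher in red wild type (grey counts per 10-point bin). The red line marks AT5G15950 (75.1, 96.8 and 18.4%) and the dashed line the median of the others (48.6, 88.3 and 9.74%).

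No red response of the other measured genes of the family passed the test. SAMDC (AT3G02470) also encodes S-adenosylmethionine decarboxylase, and its probe set was bright in all groups. It read 16228.4, 16168.5 and 17841 in red phyA and 18219.4, 12992.8 and 16291.6 in dark phyA, and 18054.6, 16131.9 and 17047.7 in red phyB against 12433.3, 14552.9 and 15540 in dark phyB. The red phyB arrays lay above the dark ones, while those of phyA overlapped. In phyAphyB it read 15627.7, 15845.3 and 15794.1 in red light and 14089.2, 14029.1 and 16917.3 in darkness, which overlapped. In wild type it read 18025.9, 19006.7 and 17681.2 in red light and 17275.6, 15123.5 and 15044.9 in darkness, with the groups apart by a small margin.

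SAMDC changed by 0.093 ± 0.11 in phyA (limma adjusted p = 0.739), 0.27 ± 0.11 in phyB (adjusted p = 0.204), 0.075 ± 0.11 in phyAphyB (adjusted p of 1) and 0.21 ± 0.11 in wild type (adjusted p = 0.357). Without dark phyA replicates 2 and 3 its change in phyA was -0.12 (adjusted p = 0.725), so its sign there is not fixed. None of the 4 passed, and the wild type interval of -0.026 to 0.44 lies below the 2.25 of AT5G15950. With quantile normalization the wild type change of SAMDC was 0.30 and passed (adjusted p = 0.0335), and over the other alternatives its adjusted p reached 0.647. AT3G25570, annotated here by locus and a further member of the family, was dim. Its group means lay between 73.9 and 104 signal units, and only dark wild type reached the range of the arrays' 40th percentiles (97.4 to 127.3). Its log2 changes were 0.025, -0.075, 0.13 and -0.27 in phyA, phyB, phyAphyB and wild type (SE 0.31 each, smallest limma adjusted p = 0.735). Without those dark phyA replicates its change in phyA was -0.33. The fourth member, BUD2, had no named probe set and was not analysed here. Over the 24 arrays the correlation with AT5G15950 was 0.61 for SAMDC and -0.15 for AT3G25570, as a description of points that share the same treatments.

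**Figure D4:**
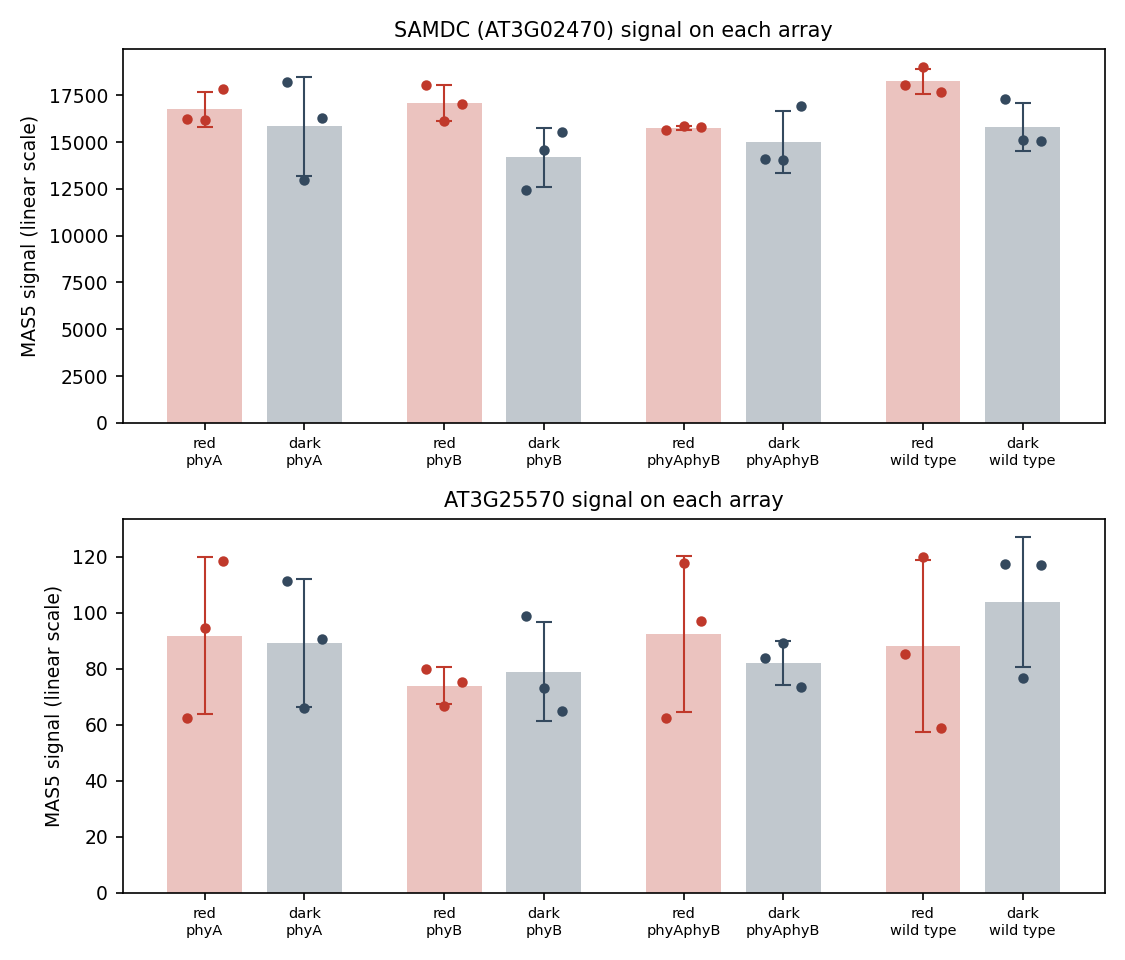
MAS5 signal (linear axes from 0) of the other S-adenosylmethionine decarboxylase genes, SAMDC and AT3G25570, by genotype and light. Points are arrays, bars are means and error bars are the SD (n = 3). Red and dark means of SAMDC lie between 14175 and 18238 in all genotypes, and AT3G25570 stays between 73.9 and 104.

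Few of the surrounding pathway genes could be read. The lists of polyamine, S-adenosylmethionine and ethylene genes hold 66 genes, of which 13 had a named probe set and 8, AT5G15950 included, passed the filter on dim probe sets. None of the 4 arginine-to-putrescine genes, the 4 aminopropyltransferase genes, the 4 S-adenosylmethionine synthetase genes or the 13 methionine cycle genes was among them. Besides AT5G15950, 8 probe sets of 7 genes were tested: SAMDC, AT3G25570, 5 probe sets of 4 copper amine oxidase genes, whose products break down putrescine and other amines, and AT1G12010 for an aminocyclopropanecarboxylate oxidase, the last step of ethylene synthesis. The 3 hydroxycinnamoyl-polyamine transferase genes with a named probe set (SHT, SDT and AT2G25150) were too dim to test, with group means of 45.6 signal units or less.

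In wild type, 1 of these 8 probe sets was called after red light, against 6.45% of all tested probe sets. It was the copper amine oxidase gene AT2G42490. This gene read 1493, 1898.9 and 1599.7 in red wild type, against 1338.9, 1171.4 and 1174.8 in dark wild type, and the groups did not overlap. It rose by 0.43 ± 0.13 (limma adjusted p = 0.0434). The call missed the threshold in 8 of 14 alternatives, among them those without dark wild type replicate 2 (adjusted p = 0.154) or 3 (0.157) and without red wild type replicate 2 (0.252) or 3 (0.0747), with the adjusted p ranging from 0.00827 to 0.252. Its changes of 0.28 in phyA, 0.21 in phyB and 0.047 in phyAphyB did not pass.

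None of the 8 was called in phyA (1 at an unadjusted p under 0.05, and again 0 called and 1 without dark phyA replicates 2 and 3), in phyB (3) or in phyAphyB (0). Their median change was 0.081 in phyA, 0.17 in phyB, 0.061 in phyAphyB and -0.040 in wild type, beside medians of 0.0014, -0.031, -0.011 and -0.0026 over all tested probe sets. No response of the 8 differed from wild type by limma: in phyA 1 had an unadjusted p under 0.05 and 0.663% of all tested probe sets were called, in phyB 1 and 0% (604 of all at an unadjusted p under 0.05) and in phyAphyB 2 and 1.87%. Both probe sets of the copper amine oxidase gene AT1G31710 disagreed in sign in wild type. The brighter changed by 0.68 ± 0.24 (adjusted p = 0.102) and the dimmer by -0.45 ± 0.24 (adjusted p = 0.334). The brighter was called in wild type with array weights (adjusted p = 0.022) and when the fit held no other groups (0.0303).

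In darkness, 1 of the 8 differed from wild type in phyAphyB, where 11.2% of all tested probe sets were called. This was AT1G12010, the ethylene-forming enzyme gene. It read 546.4, 764.5 and 610.6 in dark phyAphyB, against 275.4, 409.4 and 367.2 in dark wild type, with no overlap. It was higher by 0.87 ± 0.23 (limma adjusted p = 0.0126), a call lost without dark wild type replicate 1 (0.71, adjusted p = 0.0787) or dark phyAphyB replicate 2 (0.74, adjusted p = 0.0784). The summed signal of the 4 cotyledon and plastid markers was 20097 to 23402 in dark phyAphyB against 27132 to 31043 in dark wild type. Of its members LHCB4.2 (-1.73, limma adjusted p = 4.82e-07) and LHCB4.1 (-0.88, adjusted p = 4.03e-06) fell, while PORB (0.27) and RCA (-0.11) did not pass. ICL, for isocitrate lyase of seed oil breakdown, read 8497 to 10651 in dark phyAphyB against 17192 to 19644 in dark wild type. The sum also lay below dark wild type in dark phyA (20526 to 27100) and dark phyB (21907 to 25655). There LHCB4.1 was lower (-0.44, limma adjusted p = 0.0257 in phyA, and -0.51, adjusted p = 0.0041 in phyB). LHCB4.2, PORB and RCA did not pass in either. ICL was lower in dark phyB (-0.46, adjusted p = 0.00617) and did not pass in dark phyA (0.18). The part of these markers in the results was not tested. None of the 8 was called in dark phyA (3 at an unadjusted p under 0.05, 4.52% of all tested probe sets called) or dark phyB (1 and 7.23%). AT1G12010 was 1 of the 3 in dark phyA, higher by 0.56 ± 0.23 (limma adjusted p = 0.164) with replicates 2 and 3 included. In dark phyB it differed by 0.056 (adjusted p = 0.942).

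Among the red arrays, AT1G12010 was also higher in phyAphyB, where 17.3% of all tested probe sets were called against red wild type. It read 469, 556.9 and 672.2 in red phyAphyB, against 285.4, 333.4 and 316.6 in red wild type, with no overlap. The difference was 0.85 ± 0.23 (limma adjusted p = 0.0105), close to that in darkness, and missed the threshold without red phyAphyB replicate 3 (0.72, adjusted p = 0.0647). The marker sum was 20154 to 22573 in red phyAphyB against 23431 to 25175 in red wild type, but its members went both ways. PORB was higher (0.77, limma adjusted p = 0.000425). LHCB4.2 (-1.17, adjusted p = 6.45e-05) and LHCB4.1 (-0.45, adjusted p = 0.00553) were lower, and RCA (-0.41, adjusted p = 0.0901) did not pass. ICL read 10714 to 11360 against 14720 to 17557. Their part in the result was not tested. In red phyB, where 7.03% were called, the dimmer probe set of AT1G31710 read 211.3, 176.9 and 164, against 78.1, 92.5 and 131.2 in red wild type, again with no overlap. It was higher by 0.90 ± 0.24 (limma adjusted p = 0.0189). That call was lost without red phyB replicate 1 (adjusted p = 0.0874) or 2 (0.0558) and without red wild type replicate 1 (0.113) or 2 (0.0728), and the brighter probe set of the gene did not pass (0.17). None of the 8 was called in red phyA against red wild type (1 at an unadjusted p under 0.05, 2.59% of all tested probe sets called). That 1 was AT1G12010, at 432.5 to 611 in red phyA and apart from red wild type. It was higher by 0.77 ± 0.23 (limma adjusted p = 0.0774), near its difference in red phyAphyB. In red phyB it differed by -0.30 (adjusted p = 0.551). A difference particular to phyAphyB is therefore not shown for AT1G12010.

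The genes most like AT5G15950 were ranked by Pearson's r of log2 signals over the 24 arrays, among 6599 named probe sets whose brightest group exceeded the median signal of 182.3. The 8 highest were AT1G68440 (0.95), AT1G66330 (0.94), AT2G46420 (0.94), AT3G02910 (0.94), AT1G73480 (0.94), CYTC-2 for cytochrome c (0.94), AT3G16800 (0.94) and AOR for a reductase of reactive carbonyls (0.93). The 4 lowest were IAA29, which encodes an auxin-response repressor (-0.95), AT3G57800 (-0.94), EXO, a growth gene induced by brassinosteroid (-0.94), and AT4G35720 (-0.93). Over the 8 group means alone r was 0.96 to 0.99 for the most like and -0.95 to -0.98 for the least like. These values describe shared responses to the same treatments and carry no p.

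AT1G68440, the first of these 8, changed less than AT5G15950. Its signal averaged 3317 ± 235 in red phyA and 2220 ± 354 in dark phyA, 3746 ± 29.9 in red phyB and 2248 ± 328 in dark phyB, 2710 ± 82.9 in red phyAphyB and 2471 ± 91.9 in dark phyAphyB, and 4227 ± 272 in red wild type and 2448 ± 121 in dark wild type (SD, n = 3 each). Its log2 response of 0.79 in wild type was kept to 74.9% in phyA, 94.8% in phyB and 17.0% in phyAphyB. The phyA share of AT1G68440 depends on which dark phyA arrays are used: it was 109% without replicates 2 and 3, beside 83.9% for AT5G15950. The other 7 kept 41.1 to 100.7% in phyA, 84.5 to 109% in phyB and -4.93 to 20.6% in phyAphyB. After the group means were subtracted, r with AT5G15950 was 0.53 for AT1G68440 and -0.18 to 0.34 for those 7. By Spearman's rho, 1 of the 8 most like genes stayed among the first 8, by r within groups 0 did, 6 did over the 22 arrays without dark phyA replicates 2 and 3, and 34 probe sets without a single gene name correlated at least as strongly as the 8th.

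**Figure D5:**
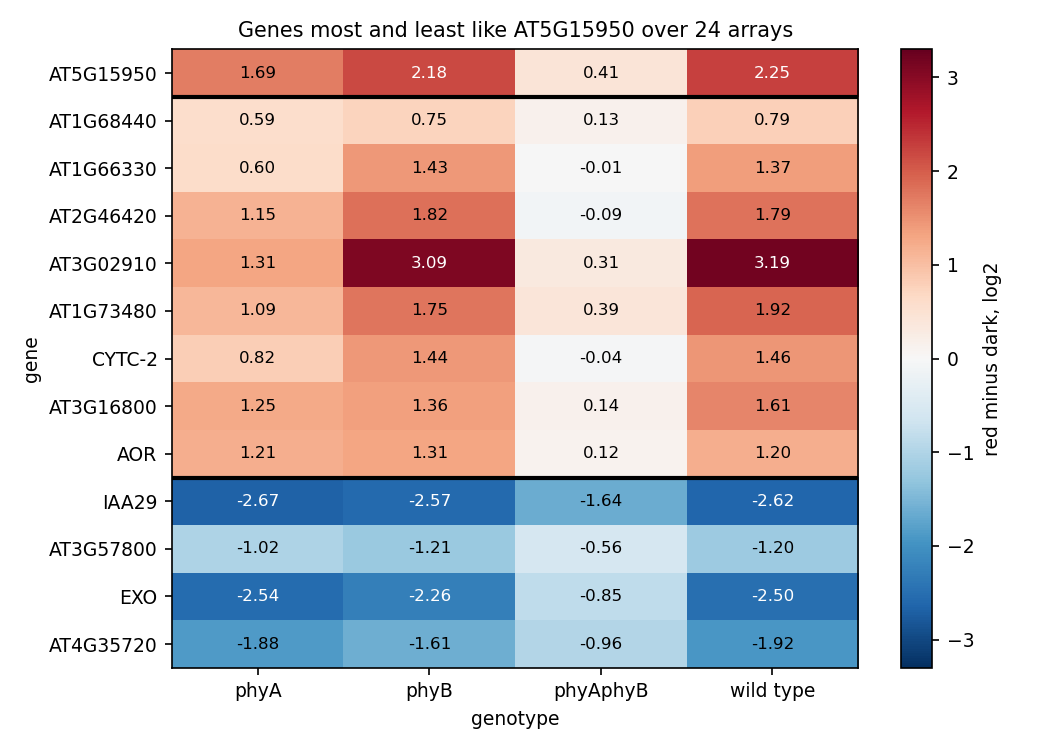
Red minus dark on the log2 scale (colour and printed value) in phyA, phyB, phyAphyB and wild type for AT5G15950 (top row), the 8 named genes with the highest and the 4 with the lowest correlation with it over 24 arrays. The most like genes change little in phyAphyB (-0.09 to 0.39), while the least like are lower in red light in all genotypes, phyAphyB included (-0.56 to -1.64).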

How the data were processed

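The authors deposited intensity values, 1 MAS5 signal per probe set and array, per the submitters' processing notes, which give no version. The mean signal trimmed by 2% at each end was 500.038 to 500.044 throughout, and this scaling was left in place. Such scaling assumes an equal mean in every sample. Detection calls and scanner files were not used here. The sources used here give no genome build for the probe sets, so no coordinates are given, and TAIR10.1 served for gene names and gene order. The number of arrays limits the precision, and replicates measure the spread between these samples.

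64 control probe sets were left out, and tests covered probe sets above the 40th percentile of an array's signals on at least 3 arrays (15085 of 22746). log2 signals were taken without a pseudocount (values of 0 among tested probe sets: 0). Of all probe sets 13513 had 1 gene in the platform annotation, 503 several and 8730 none, with symbols updated through NCBI gene identifiers of TAIR10.1. A mean per group was fitted with limma 3.58.1 in R 4.3.3 (lmFit, eBayes with an intensity trend, two-sided, Benjamini-Hochberg over all tested probe sets, calls at adjusted p under 0.05). The procedure was tested on simulated data.

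AT5G15950 and the gene lists were chosen with earlier results of these data known. Named are AT5G15950, the tested genes of the decarboxylase, aminopropyltransferase, putrescine and S-adenosylmethionine synthetase lists, genes of the other lists called in a contrast, and the 8 most and 4 least like genes. The alternatives were quantile normalization, no filter, the 60th percentile, a pseudocount of 4.9, no trend, compared groups alone, a replicate block, array weights, single arrays left out and dark phyA replicates 2 and 3 left out. Those for red mutant against red wild type, and for shares and non-additivity, were added after seeing the data.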

Additional observations from a re-analysis of the deposited data

How the results depend on the processing

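The 13 values of AT5G15950 moved by less than the replicate SD (0.18 log2) in 218 of 223 alternatives. The other 5 left out dark phyA replicates 2 and 3, with their high 25S ribosomal RNA control, so that 1 dark phyA array remained, assumed to vary like the other groups: the phyA response was 1.89, its difference from wild type -0.36 and from phyB -0.29, phyAphyB minus phyA -1.47 and dark phyA minus dark wild type -0.26. Small differences changed sign between alternatives, such as phyB minus wild type (-0.24 to 0.088), dark phyA minus dark wild type (-0.26 to 0.032) and dark phyB minus dark wild type (-0.11 to 0.18). Counts of called pathway probe sets were within 1.5 times of the reported count in 148 of 161 alternatives, most of them counts of 0 that stayed 0. Where the reported count was 1, it held in 5 of 14 alternatives for the wild type response and in 12 of 14 for dark phyAphyB. The count of 1 in wild type became 0 with no filter, with no intensity trend and with the replicate block, 2 with array weights and from the compared groups alone (AT2G42490 and AT1G31710), and 0 to 1 when single arrays were left out. Quantile normalization kept the count at 1 but called SAMDC in place of AT2G42490 (adjusted p = 0.051). In dark phyB the count was 1 (AT1G31710) with array weights and from the compared groups alone, against 0. In dark phyAphyB it was 0 to 1 when single arrays were left out. The cause was not tested. The replicate numbers did not pair the samples: 1 of 12 red and dark pairs of one genotype and number had a correlation of deviations over 0.1 (-0.17 to 0.12), and 7 of 24 arrays correlated best with their own number. The replicate block changed no other call. MAS5 signals near or below the 40th percentile, such as those of AT3G25570, limit what can be read.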

Other observations

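The tested named genes nearest to AT5G15950 in the gene order of TAIR10.1, 3 on each side, were looked at after the data had been seen. AT5G15910, 4 gene entries away, rose in phyA, phyB and wild type but not in phyAphyB: its log2 change in red light was 0.45 in phyA (limma adjusted p = 0.0476, and 0.33 with adjusted p = 0.369 without dark phyA replicates 2 and 3), 0.48 in phyB (adjusted p = 0.024), -0.19 in phyAphyB (adjusted p of 1) and 0.70 in wild type (adjusted p = 0.000652). The other 5, AT5G15870, AT5G15880, AT5G15980, AT5G16010 and AT5G16030, lay 3 to 12 entries away and passed in no genotype. Of all tested probe sets 4.34% were called in phyA, 5.75% in phyB, 0.305% in phyAphyB and 6.45% in wild type. Few of those called in wild type can thus have been called in phyAphyB, and a response missing there is not particular to AT5G15910. Genes between them without a named, tested probe set were not analysed here.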
